A study of Mus musculus with 20 samples.

Results

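Bulk liver RNA from mice given a Hira guide was compared with liver RNA from mice given a control guide, 6 months after a single injection. The comparison used 10 of the 20 libraries of the series, 5 for each guide, chosen by guide and harvest time from the sample labels, and it was tested over the 22867 of 55421 annotated genes that had 10 or more counts in total. All mice were labelled wildtype females on the C57BL/6 background, were 6 months of age when injected, and received 3.33e+11 viral genomes of AAV8 in 100 µl by the retro-orbital route. The study's account of this experiment calls the mice male in the running text and female in a figure legend. The virus carried saCas9, a small Cas9 nuclease, under the Tbg promoter, which is active in hepatocytes, together with a U6-driven guide RNA. In the HIRA group the guide was directed at Hira, and in the Rosa26 group it was directed at Rosa26, a locus used as a harmless target, so that both groups received virus, nuclease and a guide. The other 10 libraries of the series had the same guides and were taken 3 weeks after injection. Because whole liver was sequenced, stellate, endothelial, biliary and immune cells, in which the Tbg promoter is not active, contributed RNA to every library. In such bulk samples fewer cells of a type and less RNA per cell cannot be told apart.

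HIRA is a histone chaperone that places the histone variant H3.3 into chromatin outside of DNA replication, with UBN1, UBN2 and ASF1A as partners. Hepatocytes divide rarely, so that replication-independent deposition is the main route by which their chromatin receives new histones. Hepatocytes make most plasma proteins, including the acute phase proteins that are released in inflammation, and they carry out the urea cycle, drug oxidation and lipid storage.

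The libraries held 19916430 to 24079736 counts, and no pair of replicates was alike enough to be the same library deposited again. Albumin, the defining transcript of liver, was at 66150 to 121600 CPM in all 10 libraries, where CPM is the count of a gene per 1000000 counts of its library after TMM scaling between libraries. In its sex markers a single library stood apart. In the library labelled HIRA 6 months replicate 5, Xist, the RNA that coats the inactive X of females, was at 0.457 CPM against 302 to 391 CPM in the other 9 libraries. In the same library the Y-linked genes Eif2s3y, Ddx3y, Kdm5d and Uty reached 55.6, 26.8, 14.1 and 7.22 CPM. It had the highest level of the 10 libraries in 15 of 16 male-biased liver genes and the lowest in 23 of 23 female-biased ones, whereas over the 12976 genes of at least 1 CPM it was highest in 21.5% and lowest in 19.2%. It also had the lowest level for 21 of 31 stellate cell and matrix genes, 11 of 14 Kupffer cell genes and 10 of 18 lymphocyte genes. Its markers go against a female label, so that results are given with all 20 libraries in the fit and, for every call, with 19, leaving that library out. Other libraries stood apart in other markers. Rosa26 replicate 3 had a summed Kupffer cell level of 2387 CPM against 215 to 1487 CPM in the other 9 libraries. HIRA replicate 3 had a summed stellate cell and matrix level of 1978 CPM against 486 to 893 CPM.

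**Figure D1:**
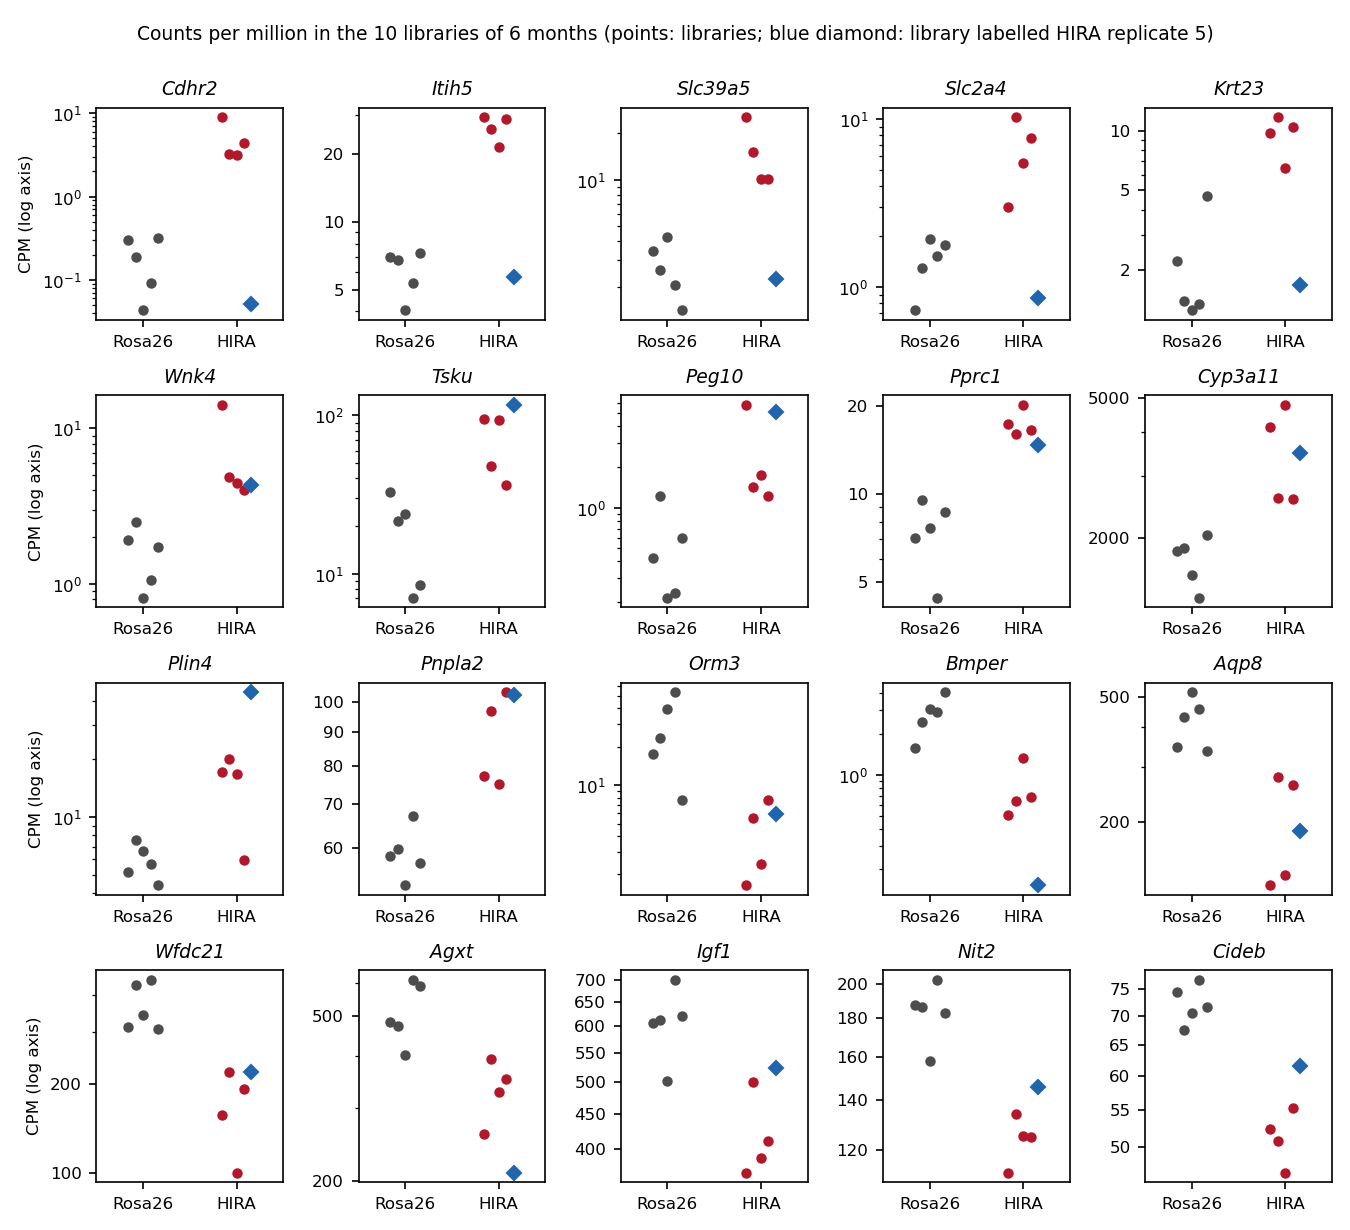
Level in CPM (log axis, 1 panel per gene) of 20 genes in the 5 Rosa26 libraries (grey) and the 5 HIRA libraries (red) of 6 months; the blue diamond is the library labelled HIRA 6 months replicate 5. For Cdhr2, Itih5, Slc39a5, Slc2a4 and Krt23 the diamond lies among the grey points, while the other 4 HIRA libraries lie above all of them.

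Hira, the targeted gene, was at 5.32, 4.96, 5.64, 5.48 and 6.51 CPM in the HIRA libraries and at 5.63, 7.32, 6.07, 6.07 and 4.82 CPM in the Rosa26 libraries. The groups overlapped, and the log2 difference was -0.10 ± 0.14 (± SE throughout; adjusted p 0.793 in edgeR), or -0.16 ± 0.14 with 19 libraries (0.614). A small insertion or deletion made by a nuclease need not lower the amount of a transcript, so its level does not test whether the protein was lost. H3f3a, a gene for H3.3, was at 72.5 to 91.5 CPM in the HIRA libraries and at 59.2 to 64.9 CPM in the Rosa26 libraries. The groups did not overlap, and H3f3a rose by 0.32 ± 0.07 log2 units (edgeR adjusted p 0.0293; 0.35 and 0.0204 with 19 libraries), and its difference at 3 weeks was 0.38 (0.0309). H3f3a has near-identical processed copies in the genome, so its level is uncertain where counting could divide reads among them. H3f3b, the other gene for H3.3, overlapped between the groups, with a difference of -0.10 ± 0.11 (edgeR adjusted p 0.74) or -0.04 with 19 libraries (0.905). Ubn1 (0.14 and, with 19, 0.18), Ubn2 (0.14 and 0.13) and Asf1a (0.12 and 0.12), the HIRA partners, did not pass the test in either fit.

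A gene was called changed when its log2 fold change was beyond 1 in either direction and its Benjamini-Hochberg adjusted p in edgeR's quasi-likelihood test was under 0.05. With 20 libraries 76 genes were called, 57 higher (0.249% of the genes tested) and 19 lower (0.0831%) in the HIRA group, which is 0.332% in either direction. With 19 libraries 102 genes were called, 76 higher and 26 lower (0.446% in all, 0.332% and 0.114% by direction). The fits shared 52 calls, 38 higher and 14 lower. By adjusted p alone, 299 genes passed with 20 libraries (1.31%), 159 higher (0.695%) and 140 lower (0.612%), and 395 with 19 (1.73%), 210 higher (0.918%) and 185 lower (0.809%). The 5 HIRA libraries did not overlap with the 5 Rosa26 libraries in 44 of the 76 called genes, against 3.15% of all genes, and the 4 remaining HIRA libraries did not overlap with them in 79 of the 102, against 5.69% of all genes. Single libraries moved these counts. With 20 libraries the count of 76 became 18 without Rosa26 replicate 4, 33 without Rosa26 replicate 1, 39 without HIRA replicate 1 and 49 without Rosa26 replicate 5. The count of 102 became 45 without Rosa26 replicate 4 or HIRA replicate 1, 48 without HIRA replicate 3, 59 without Rosa26 replicate 1, 165 without HIRA replicate 2 and 342 without Rosa26 replicate 3. Fitted to the 6-month libraries alone, edgeR called 0 genes with 10 libraries, with 2629 of 20832 tested at an unadjusted p under 0.05. With 9 libraries it called 3 genes (Itih5, Cdhr2 and the gene model Gm49012, named after their values were seen). DESeq2 on the same 10 and 9 libraries called 86 and 120. Of the 102 genes, 79 were protein coding and 29 had a mean under 1 CPM.

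**Figure D2:**
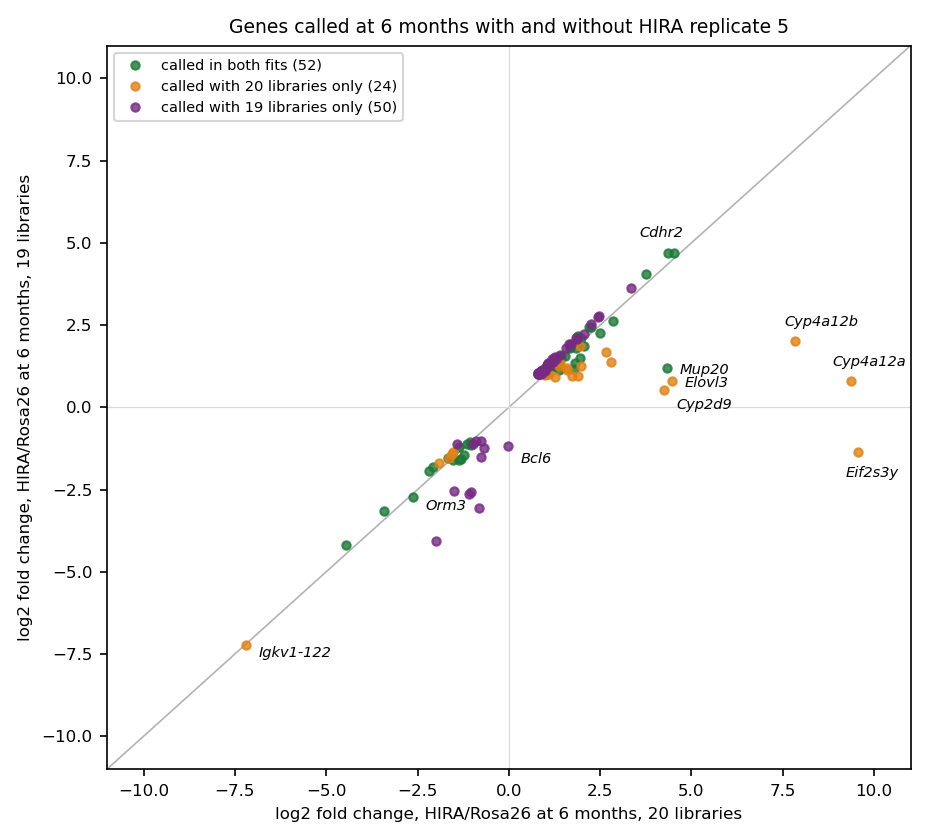
Log2 fold change of HIRA over Rosa26 at 6 months with 20 libraries (x axis) and with 19 libraries, without the library labelled HIRA 6 months replicate 5 (y axis), for every gene called in either fit (points; green, called in both, 52; orange, with 20 only, 24; purple, with 19 only, 50). Cyp4a12a, Cyp4a12b, Eif2s3y, Elovl3 and Cyp2d9 lie far to the right of the diagonal, whereas Cdhr2 lies close to it.

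The 24 calls that were made only with 20 libraries included sex-biased genes carried by that library. Eif2s3y, a Y-linked translation factor gene, had 55.6 CPM in it and none in the other 4 HIRA libraries. Cyp4a12a, a male-biased fatty acid hydroxylase, was at 256 CPM against 0.0911 to 0.166 CPM, and Cyp4a12b was at 16.6 CPM. Cyp2d9, a male-biased steroid hydroxylase, was at 991 CPM against 10.5 to 20.1 CPM. None of these 4 passed with 19 libraries, with edgeR adjusted p-values of 0.739 for Eif2s3y, 0.658 for Cyp4a12a, 0.31 for Cyp4a12b and 0.342 for Cyp2d9, and Elovl3, a fatty acid elongase, had 0.503. Mup20, a male pheromone protein gene of a family of near-identical members, was at 36.1, 23.9, 82.9 and 28 CPM in the other HIRA libraries and at 12.7 to 30.3 CPM in the Rosa26 libraries. Those ranges overlapped, and Mup20 kept an adjusted p under 0.05 with 19 libraries (1.19 ± 0.29, edgeR adjusted p 0.0383), which was 0.189 at a difference of 0.64 when HIRA replicate 3 was left out as well, and 0.066 to 0.107 without Rosa26 replicate 1, 2 or 4 or HIRA replicate 1.

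The female-biased list also differed among the libraries labelled HIRA 6 months whose markers matched the label. Over its 23 genes the summed level was 2813 to 4966 CPM in those 4 libraries and 5541 to 9170 CPM in the Rosa26 libraries, and the ranges did not overlap. The 4 HIRA libraries were uneven. Replicates 1 and 3 had 2813 and 3170 CPM and mean log2 CPM, centred on the 10 libraries, of -0.75 and -0.40, and replicates 2 and 4 had 4966 and 4649 CPM and 0.72 and 0.67, beside 0.81 to 1.09 in the Rosa26 libraries. Cyp3a41a, for instance, a member named after its values were seen, was at 7.24 and 13.4 CPM in replicates 1 and 3, at 117 CPM in each of replicates 2 and 4 and at 113 to 198 CPM in the Rosa26 libraries. With 19 libraries 53.4% of all genes tested had a log2 fold change above 0. In this list 18 of the 23 genes were at or below 0. Their median was -0.42 against 0.03 over all genes (-0.24 without Rosa26 replicate 5 and -0.27 without HIRA replicate 1), and 1 was called. That gene was Cyp2c40, a female-biased P450 of a family of near-identical members. It was at 51.7, 99.7, 73.1 and 75.7 CPM in the 4 HIRA libraries and at 165, 164, 109, 158 and 218 CPM in the Rosa26 libraries, without overlap, and fell by 1.12 ± 0.24 log2 units (edgeR adjusted p 0.0217). Its adjusted p was 0.0505 without Rosa26 replicate 4, 0.0758 without HIRA replicate 1 and 0.059 without HIRA replicate 3. The library labelled HIRA 6 months replicate 5 had 4.57 CPM, and with it Cyp2c40 did not pass (-1.42, adjusted p 0.103). Bcl6, a repressor of female-biased genes in male liver, was at 9.52 to 23 CPM in the 4 libraries, at 101 CPM in replicate 5 and at 14.2 to 59.6 CPM in the Rosa26 libraries. The ranges of Bcl6 overlapped, and its difference was -1.18 ± 0.30 with 19 libraries (edgeR adjusted p 0.0496) but -0.02 with 20. The call with 19 libraries ended when any 1 of 6 further libraries was left out (adjusted p 0.0749 to 0.122), with a difference of -0.83 without Rosa26 replicate 2.

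Among the named genes called higher in both fits, the largest fold belonged to Cdhr2 (ENSMUSG00000034918.8, chromosome 13, 54701461 to 54736662, GENCODE annotation of mm10), a protocadherin that links the tips of microvilli. Cdhr2 was at 8.96, 3.28, 3.19, 4.35 and 0.0508 CPM in the HIRA libraries and at 0.299, 0.186, 0.043, 0.0927 and 0.321 CPM in the Rosa26 libraries. The first 4 HIRA libraries lay above every Rosa26 library, and replicate 5 lay among them. Cdhr2 rose by 4.36 ± 0.69 log2 units with 20 libraries (edgeR adjusted p 0.0105) and by 4.68 ± 0.43 with 19 (6.45e-06). With 20 libraries its adjusted p was 0.163 in limma-voom. Itih5 (ENSMUSG00000025780.7, chromosome 2, 10153571 to 10256529), which encodes an inhibitor heavy chain that binds hyaluronan in matrix, was at 29.2, 25.8, 21.6, 28.8 and 5.69 CPM in the HIRA libraries. In the Rosa26 libraries Itih5 was at 6.96, 6.8, 4.04, 5.37 and 7.29 CPM. Again replicate 5 alone lay inside the Rosa26 range, and Itih5 rose by 1.87 ± 0.29 (adjusted p 0.0105) or, with 19 libraries, by 2.11 ± 0.17 (8.84e-07).

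The same layout, with 4 HIRA libraries above all Rosa26 libraries and replicate 5 inside their range, was seen in further genes, among them Slc39a5, Slc2a4 and Krt23 of high fold and Scamp5, Ets2 and Eng of smaller fold. Other HIRA libraries also lay inside the Rosa26 range in some genes. Among genes of at least 1 CPM that were called when a HIRA library was left out, the left-out library lay inside the Rosa26 range in 21 of 73 for replicate 5, 8 of 33 for replicate 1, 29 of 88 for replicate 2, 16 of 62 for replicate 3 and 32 of 91 for replicate 4. Slc39a5, a zinc importer, was at 25.4, 15.2, 10.2, 10.1 and 2.29 CPM against 3.46, 2.61, 4.26, 2.08 and 1.42 CPM. It rose by 2.19 ± 0.46 (edgeR adjusted p 0.0238) or 2.46 ± 0.37 with 19 libraries (0.00393). It overlaps Ankrd52 on the opposite strand, which had 473.9% as many counts, so its level is uncertain if counting did not use strand. Slc2a4, which encodes the insulin-responsive glucose transporter GLUT4 of muscle and fat, was at 3.01, 10.2, 5.47, 7.68 and 0.864 CPM against 0.726, 1.3, 1.94, 1.53 and 1.79 CPM. Slc2a4 rose by 1.90 ± 0.47 (adjusted p 0.047) or 2.17 ± 0.38 with 19 libraries (0.00778). Krt23, a keratin found in biliary and stressed liver epithelium, was at 9.7, 11.7, 6.51, 10.4 and 1.68 CPM against 2.22, 1.4, 1.25, 1.34 and 4.68 CPM. It rose by 1.87 ± 0.42 (adjusted p 0.03) or 2.13 ± 0.33 (0.005).

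In the next 4 genes all 5 HIRA libraries lay above all 5 Rosa26 libraries. Wnk4 (ENSMUSG00000035112.17, chromosome 11, 101260567 to 101277409), a kinase that controls ion cotransporters, was at 14.2, 4.87, 4.48, 4.01 and 4.32 CPM against 1.92, 2.52, 0.818, 1.07 and 1.74 CPM. The groups did not overlap, and HIRA replicate 1 stood above the rest of its group. Wnk4 rose by 1.99 ± 0.36 (edgeR adjusted p 0.0141) or 2.10 ± 0.37 with 19 libraries (0.00899), and had an adjusted p of 0.0521 when Rosa26 replicate 4 was left out. Tsku, a secreted proteoglycan made by liver that binds TGF-beta family ligands, was at 94.5, 47.6, 93.7, 36.1 and 117 CPM against 32.9, 21.5, 23.9, 7.04 and 8.44 CPM, and rose by 2.05 ± 0.41 (0.0204) or 1.86 ± 0.41 (0.0268). Without Rosa26 replicate 4 its adjusted p was 0.0619. Peg10, a paternally expressed gene derived from a retrotransposon, was at 5.79, 1.41, 1.74, 1.22 and 5.08 CPM against 0.427, 1.21, 0.215, 0.232 and 0.596 CPM. It rose by 2.50 ± 0.49 (0.0163) or 2.25 ± 0.49 (0.0236), with 0.0619 when Rosa26 replicate 4 was left out of the 20. With 19 libraries its call ended without Rosa26 replicate 1 or 4 (edgeR adjusted p 0.0599 and 0.0729) or HIRA replicate 1 (1.45, 0.115). Pprc1, a coactivator of mitochondrial gene expression, was at 14.8 to 20.3 CPM against 4.4 to 9.51 CPM and rose by 1.19 ± 0.17 (0.0105) or 1.24 ± 0.18 (0.0036). Pprc1 overlaps Ldb1 on the opposite strand, which had 292.7% as many counts.

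Cyp3a11, an abundant P450 that oxidises many drugs, was at 4132, 2598, 4789, 2589 and 3498 CPM in the HIRA libraries and at 1844, 1880, 1569, 1356 and 2050 CPM in the Rosa26 libraries. The groups did not overlap, and Cyp3a11 rose by 1.02 ± 0.17 (edgeR adjusted p 0.0138; 1.02 and 0.00985 with 19 libraries). It belongs to a family of near-identical genes. Proca1 (1.94 and 1.49), Slc17a8 (1.84 and 1.80), a vesicular glutamate transporter, and Zdhhc2 (1.71 and 1.86), a palmitoyl transferase, were called in both fits. With 20 libraries the call of Zdhhc2 ended without Rosa26 replicate 1, 3 or 4 or HIRA replicate 1 or 3 (edgeR adjusted p 0.0535 to 0.11), and with 19 without Rosa26 replicate 1 or 4 or HIRA replicate 1 (0.0527 to 0.0893). With 19 libraries that of Slc17a8 ended without Rosa26 replicate 4 or HIRA replicate 3 (0.0701 and 0.0919) and that of Proca1 without HIRA replicate 1 (0.0724). Zdhhc2 overlaps Cnot7 on the opposite strand, which had 1626% as many counts. Called with 19 libraries only were the B cell chemokine Cxcl13 (2.77 ± 0.63), the tubulin Tuba8 (2.52), the MAP kinase phosphatase Dusp8 (2.21), Ttc39a (2.11) and Ccdc120 (1.60). Leaving out a further library ended each of these calls. Without HIRA replicate 3 the differences were 1.43 for Tuba8 (edgeR adjusted p 0.0574), 1.12 for Dusp8 (0.274), 1.40 for Ttc39a (0.154) and 0.72 for Ccdc120 (0.158), and without HIRA replicate 4 that of Cxcl13 was 1.77 (0.106). Tmem28 was called with 20 only, and its adjusted p with 19 was 0.0979.

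Among abundant genes with smaller folds, several separated the groups. Slc25a22, a mitochondrial glutamate carrier, was at 250 to 304 CPM in the HIRA libraries and at 140 to 185 CPM in the Rosa26 libraries, and rose by 0.71 ± 0.13 (edgeR adjusted p 0.0141; 0.74 and 0.00982 with 19 libraries). The chromatin reader Phf12 (0.52 and 0.48), the phosphatase Dusp3 (0.54 and 0.50), the motor Myo1c (0.51 and 0.57), the membrane traffic protein Scamp5 (0.84 and 0.96), the transcription factor Ets2 (0.62 and 0.73) and Cystm1 (0.79 and 0.88) rose in both fits. Scamp5 was at 15.3 to 26.2 CPM in the first 4 HIRA libraries, at 12.9 CPM in replicate 5 and at 9.03 to 13.6 CPM in the Rosa26 libraries, and Ets2 at 34.3 to 51 CPM, 26.5 CPM and 20.2 to 28.7 CPM. Among the lower genes of this kind, Nit2, an amidase, was at 112 to 146 CPM against 158 to 203 CPM and fell by 0.52 ± 0.08 (0.0105; -0.56 and 0.00376 with 19 libraries). Hint3 (-0.76 and -0.80), a nucleotide hydrolase, Tmem14c (-0.55 and -0.56), a mitochondrial membrane protein needed for heme synthesis, Ormdl1 (-0.45 and -0.51), a brake on sphingolipid synthesis, the chemokine Ccl9 (-0.78 and -0.71), the adaptor Grb7 (-0.45 and -0.54), Aagab (-0.45 and -0.48) and Cutal (-0.39 and -0.43) fell in both. With 20 libraries Grb7 no longer passed when any 1 of 9 of the 10 libraries was left out (edgeR adjusted p 0.0515 to 0.118). Ets2 did not pass without Rosa26 replicate 1, 3 or 4 or HIRA replicate 1 or 3 (0.0562 to 0.104), and Myo1c, Scamp5, Cystm1 and Cutal did not without Rosa26 replicate 4 (0.0521 to 0.0651). Nit2 and Cutal overlap Tomm70a and Psmd5 on the opposite strand, with 58.42% and 53.45% as many counts.

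Among genes called lower, Orm3 (ENSMUSG00000028359.4, chromosome 4, 63356162 to 63359511), an orosomucoid and one of a family of near-identical acute phase genes, was at 1.64, 5.51, 2.41, 7.63 and 5.95 CPM in the HIRA libraries and at 17.4, 23.5, 39.4, 53.5 and 7.62 CPM in the Rosa26 libraries. The groups touched at 1 library each, HIRA replicate 4 and Rosa26 replicate 5. Orm3 fell by 2.62 ± 0.55 (edgeR adjusted p 0.0238) or 2.74 ± 0.60 with 19 libraries (0.0252). With 20 libraries its adjusted p was 0.0833 without Rosa26 replicate 4, 0.0581 without HIRA replicate 1 and 0.0517 without HIRA replicate 3. With 19 libraries these values were 0.0753, 0.0835 and 0.0838. Bmper, a secreted protein that binds BMPs, was at 0.508, 0.638, 1.33, 0.685 and 0.152 CPM against 1.58, 2.47, 3.06, 2.92 and 4.08 CPM, without overlap, and fell by 2.07 ± 0.46 (0.0307) or 1.83 ± 0.45 (0.0392). Aqp8, a water channel of the hepatocyte canalicular membrane, was at 126, 279, 136, 262 and 187 CPM against 345, 432, 516, 458 and 335 CPM. It did not overlap and fell by 1.07 ± 0.19 (0.0141) or 1.05 ± 0.21 (0.0142). Wfdc21, a secreted protein of the whey acidic protein family, was at 100 to 220 CPM against 307 to 451 CPM and fell by 1.05 ± 0.19 (0.0141) or 1.14 ± 0.19 (0.00778).

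Srgap3 (-1.68 and -1.53), Zkscan4 (-1.38 and -1.20), a zinc finger protein, Serpinb8 (-1.13 and -1.11), a protease inhibitor, and Cd1d2 (-1.52 and -1.60), annotated as a polymorphic pseudogene of the CD1 family, were called lower in both fits. With 19 libraries the call of Srgap3 ended without any 1 of 6 further libraries (edgeR adjusted p 0.0587 to 0.105), that of Serpinb8 without Rosa26 replicate 4 or HIRA replicate 1, 2 or 4 (0.0505 to 0.089), that of Zkscan4 without HIRA replicate 1 or 3 (0.061 and 0.0564) and that of Cd1d2 without HIRA replicate 3 (0.0574). Rab38 was called lower with 20 libraries (-1.53, edgeR adjusted p 0.047) and had -1.37 and 0.0697 with 19. Dclk3 (-1.12) and Ccdc30 (-1.23) were called lower with 19 libraries only, and the call of Ccdc30 ended without HIRA replicate 1, 3 or 4 (0.0537 to 0.0874). Igkv1-122, an immunoglobulin variable segment, was called lower with 20 libraries, but the call rested on 36.4 CPM in Rosa26 replicate 5 against 0 to 0.0927 CPM in the other 4 Rosa26 libraries, and its adjusted p was 0.0616 with 19.

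Promoter sequence is shown for 4 of these genes as examples, which were chosen after their values were seen. Cdhr2, Itih5 and Wnk4 were among 7 named genes that passed the test at both harvest times in the 19-library fit (the others were Slc39a5, Slc2a4, Krt23 and Hint3, not shown), and Orm3 was the called acute phase gene. Each line is the 250 bases before the transcription start in RefSeq (GRCm38.p6, plus strand), at chr13:54701213-54701462 for Cdhr2, chr2:10153293-10153542 for Itih5, chr11:101260317-101260566 for Wnk4 and chr4:63355908-63356157 for Orm3. Capitals mark matches to short motifs.
Cdhr2: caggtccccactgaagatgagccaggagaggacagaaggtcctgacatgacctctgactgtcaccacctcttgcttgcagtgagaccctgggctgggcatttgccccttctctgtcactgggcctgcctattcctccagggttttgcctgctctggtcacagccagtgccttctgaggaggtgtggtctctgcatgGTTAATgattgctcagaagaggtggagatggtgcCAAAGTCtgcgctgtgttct
Itih5: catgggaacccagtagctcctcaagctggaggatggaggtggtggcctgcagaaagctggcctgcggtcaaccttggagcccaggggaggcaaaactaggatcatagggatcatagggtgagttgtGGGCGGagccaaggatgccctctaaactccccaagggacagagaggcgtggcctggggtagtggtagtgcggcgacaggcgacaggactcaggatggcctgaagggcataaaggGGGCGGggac
Wnk4: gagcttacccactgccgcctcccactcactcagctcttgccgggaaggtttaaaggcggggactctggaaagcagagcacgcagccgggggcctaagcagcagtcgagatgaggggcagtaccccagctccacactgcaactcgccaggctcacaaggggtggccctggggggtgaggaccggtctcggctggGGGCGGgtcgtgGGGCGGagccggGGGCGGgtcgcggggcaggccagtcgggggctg
Orm3: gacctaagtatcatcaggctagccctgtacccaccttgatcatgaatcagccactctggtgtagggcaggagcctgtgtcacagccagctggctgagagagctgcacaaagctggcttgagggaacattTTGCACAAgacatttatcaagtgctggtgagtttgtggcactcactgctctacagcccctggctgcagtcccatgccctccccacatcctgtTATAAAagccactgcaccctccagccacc

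Both strands were searched for each motif, and its share is over 32851 RefSeq promoter records of this length. The Cdhr2 sequence held GTTAAT, a half-site of HNF1, 54 bases before the start (6.43% of promoters hold it). It also held CAAAGTC, a half-site of HNF4, 20 bases before the start (3.84% of promoters). The Itih5 sequence held GGGCGG, the GC box, 124 and 10 bases before the start, and the Wnk4 sequence held the GC box 57, 45 and 33 bases before the start (32.7% of promoters). The Orm3 sequence held TATAAA, the TATA box, 29 bases before the start (12.4% of promoters). Farther up, 121 bases before the start, it held TTGCACAA, a match to the C/EBP core TTGCNNAA (9.56% of promoters). The other motifs searched were the CCAAT box (33.8% of promoters), spelled CCAAT, and the E-box (6.02%), spelled CACGTG. These matches describe letters only. Among genes with a promoter record, by adjusted p with 19 libraries, the GC box was present in 66.7% of the 159 that rose, 48.3% of the 143 that fell and 56.1% of all 13671 tested. The same shares were 30.8%, 39.9% and 39.1% for the CCAAT box, 6.29%, 14.0% and 8.91% for the E-box and 8.18%, 8.39% and 9.42% for the TATA box. They were 6.29%, 7.69% and 5.73% for the HNF1 half-site, 5.66%, 6.29% and 4.47% for the HNF4 half-site and 10.7%, 9.79% and 9.77% for the C/EBP core.

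Gene programs were described by the number of their members that passed and by the median log2 fold change. That median was 0.03 over all genes tested in both fits. A log2 fold change above 0 was found in 54.3% of all genes with 20 libraries and in 53.4% with 19. Members of a list come from the same libraries, so their signs are not independent of each other. Over all genes an unadjusted p under 0.05 was reached by 15.5% with 20 libraries (8.68% higher and 6.85% lower) and by 17.6% with 19 (9.89% higher and 7.73% lower). Apart from the sex-biased lists, the lowest median belonged to the acute phase list. Of its 19 genes, 17 had a log2 fold change below 0, the median was -0.57 (-0.65 with 19 libraries), and 9 had an unadjusted p under 0.05 in the lower direction (10 with 19). The mean log2 CPM of the list, centred on the 10 libraries, was at or below -0.37 in every HIRA library and at or above -0.21 in every Rosa26 library. The summed level, which is set by the abundant members, overlapped, at 7944 to 10187 CPM in the HIRA libraries and 8635 to 20862 CPM in the Rosa26 libraries, with Rosa26 replicate 1 below HIRA replicates 2 and 5. After adjustment Orm3 passed with 20 libraries and Orm3 and Crp with 19. Crp, C-reactive protein, was at 318 to 439 CPM against 410 to 655 CPM, overlapping at replicate 5 only, and its difference was -0.57 ± 0.15 (edgeR adjusted p 0.0545) or -0.65 ± 0.15 (0.0308). Saa1, serum amyloid A, had a wide spread, at 159, 182, 446, 75.8 and 481 CPM against 351, 2704, 1371, 1970 and 3302 CPM. Rosa26 replicate 1 overlapped with the HIRA libraries, and Saa1 did not pass in edgeR (-2.85 ± 1.00, adjusted p 0.159, or -3.17 and 0.139 with 19). Saa2 (-3.15 and -3.49), Lcn2 (-2.63 and -2.58), Orm2 (-2.10 and -2.08), Apcs (-1.07 and -1.04) and Hp (-0.61 and -0.69) did not pass in either edgeR fit. Under 21 alternative settings of the 20-library fit, described below, Saa2, Lcn2, Orm2 and Apcs each passed in 2, Saa1 in 1 and Hp in 0. Under 14 settings of the 19-library fit the counts were 2 for Saa1 and Saa2, 1 for Lcn2, Orm2 and Apcs and 0 for Hp.

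The lists of urea cycle, plasma protein and sterol genes had medians below 0 in both fits with few members that passed. In the urea cycle and amino acid list, 30 of 32 genes with 20 libraries and all 32 with 19 had a log2 fold change below 0, with medians of -0.28 and -0.30. Without HIRA replicate 1 these medians were -0.17 and -0.15, and without Rosa26 replicate 5 the second was -0.19. At an unadjusted p under 0.05, 12 of 32 were lower and 0 higher (11 and 0 with 19). The summed level overlapped, at 16373 to 29729 CPM in the HIRA libraries and 25564 to 34348 CPM in the Rosa26 libraries. The list member that passed was Agxt, the peroxisomal enzyme that clears glyoxylate. Agxt was at 260, 394, 329, 352 and 209 CPM against 484, 472, 404, 612 and 591 CPM, without overlap, and fell by 0.73 ± 0.15 (edgeR adjusted p 0.0236; -0.62 and 0.0288 with 19 libraries). The plasma protein list had medians of -0.21 and -0.25 and no member that passed in edgeR. At an unadjusted p under 0.05, 6 of 32 were lower and 2 higher (8 and 1 with 19). The summed level overlapped, at 189910 to 247080 CPM in the HIRA libraries and 167520 to 239520 CPM in the Rosa26 libraries. Alb, a member of this list, had a difference of 0.35 ± 0.17 (edgeR adjusted p 0.321), or 0.36 with 19 libraries (0.281). The sterol list had medians of -0.26 and -0.18 with none of 24 past the adjusted threshold in edgeR and 6 lower at an unadjusted p (3 with 19). The sterol medians depended on single HIRA libraries, with -0.52 and -0.45 without replicate 4, and -0.04 without replicate 1 in the 19-library fit. Of the other metabolic lists, the medians were 0.16 and 0.03 for fatty acid oxidation, 0.26 and 0.07 for phase 2 conjugation, 0.16 and 0.05 for the P450 list, 0.04 and -0.08 for bile acids, 0.01 and -0.05 for gluconeogenesis and -0.03 and -0.06 for lipogenesis. Of 21 hepatocyte transcription factors none passed in edgeR (4 higher and 1 lower at an unadjusted p, or 4 and 2 with 19), and the medians were 0.07 and 0.02. Hnf4a, a central regulator of hepatocyte identity, was at 584 to 764 CPM against 452 to 641 CPM, with a difference of 0.17 ± 0.11 (adjusted p 0.475), or 0.15 with 19 libraries (0.522). Igf1, the growth hormone target secreted by liver, was at 370, 499, 388, 410 and 524 CPM against 606, 613, 500, 700 and 621 CPM. The HIRA replicate 5 value lay above the lowest Rosa26 library, and Igf1 fell by 0.47 ± 0.11 (0.0388; -0.54 and 0.0187 with 19 libraries). Slc27a5, which activates bile acids, had -0.38 (0.0545) and fell with 19 libraries (-0.41, 0.038).

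**Figure D3:**
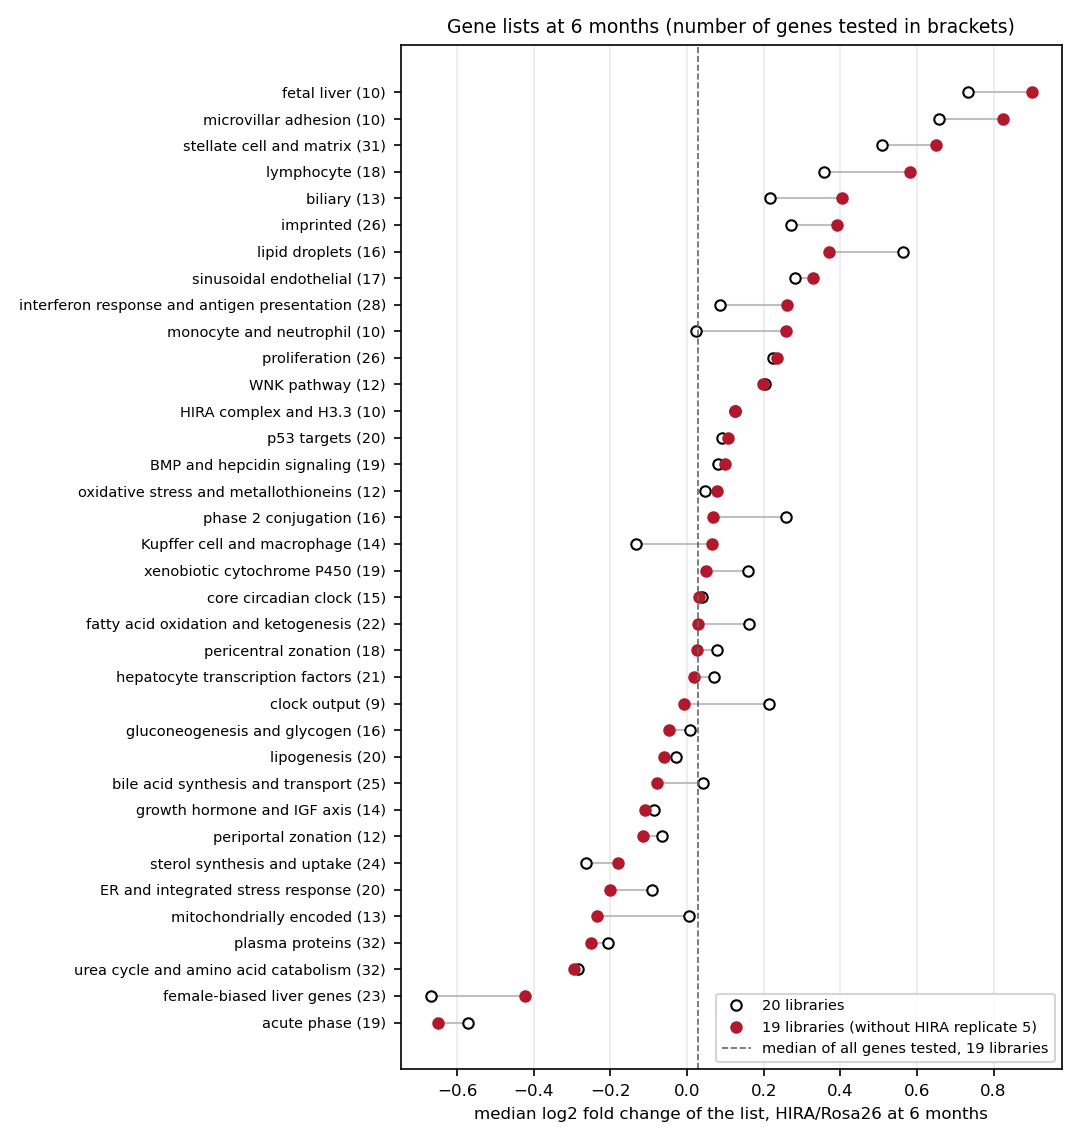
Median log2 fold change of HIRA over Rosa26 at 6 months (x axis) for the gene lists other than the male-biased and sex check lists (y axis, with the number of genes tested), with 20 libraries (open points) and with 19 (red points); the dashed line is the median of all genes tested. Of the lists drawn, acute phase lies lowest with 19 libraries, at -0.65, and the fetal liver list (10 genes, 0.90, or 0.10 without HIRA replicate 3) and the microvillar list (10 genes, 0.82) lie highest.

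In the lipid droplet list 3 genes rose and 1 fell in both fits, and the medians were 0.56 and 0.37. Plin4, a perilipin that coats droplets, was at 17.2, 19.9, 16.7, 5.97 and 44.4 CPM against 5.17, 7.6, 6.67, 5.7 and 4.4 CPM. Replicate 4 lay inside the Rosa26 range and replicate 5 was the highest, and Plin4 rose by 1.82 ± 0.33 (edgeR adjusted p 0.0141) or 1.34 ± 0.26 (0.0134). Pnpla2, the adipose triglyceride lipase, was at 77.1, 97, 75, 104 and 102 CPM against 58.3, 59.9, 52.7, 67.2 and 56.9 CPM, without overlap. It rose by 0.62 ± 0.11 (0.0141; 0.58 and 0.0137 with 19 libraries), and Fitm2, which packages droplets, rose by 0.57 ± 0.10 (0.0141; 0.55 with 19 libraries). Cideb, which loads lipid onto lipoprotein particles, was at 46.8 to 61.6 CPM against 67.5 to 76.9 CPM and fell by 0.44 ± 0.08 (0.0141; -0.49 and 0.005). Replicate 5 was the highest of the 10 libraries in 8 of these 16 genes.

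**Figure D4:**
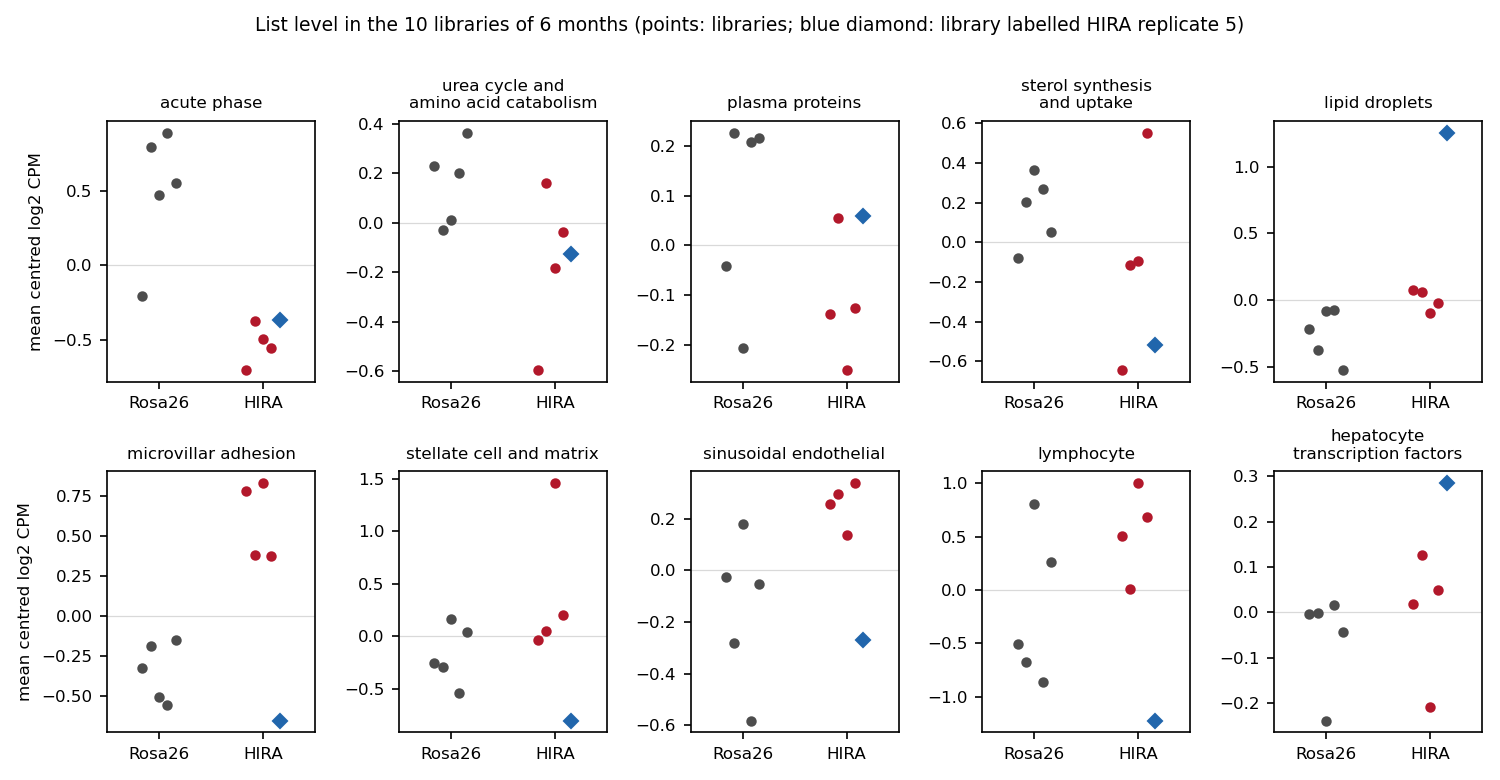
Mean log2 CPM of 10 gene lists in each library of 6 months, centred on the mean of the 10 libraries (y axis), for Rosa26 (grey) and HIRA (red, with the blue diamond for the library labelled HIRA 6 months replicate 5). In the acute phase panel all 5 HIRA libraries lie below all 5 Rosa26 libraries, and in the stellate cell and lymphocyte panels the diamond lies at the bottom.

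Several lists of markers for cells other than hepatocytes had positive median differences in both fits. All 31 stellate cell and matrix genes had a log2 fold change above 0, with medians of 0.51 and 0.65, and none was at 0 CPM in all libraries. Their summed level was 748.8 to 1978 CPM in those 4 libraries, 486.3 CPM in replicate 5 and 486.9 to 820.4 CPM in the Rosa26 libraries, so the ranges overlapped. None passed with 20 libraries in edgeR, with 9 at an unadjusted p under 0.05 (23 with 19). With 19 libraries the matrix protein Thbs2 (1.31 ± 0.30, edgeR adjusted p 0.0291) and the collagen Col5a1 (0.62 ± 0.16, 0.0472) rose. Under 14 alternative settings of that fit, Thbs2 kept an adjusted p under 0.05 in 9 and Col5a1 in 6. Their lowest differences there were 0.68 and 0.42. HIRA replicate 3 had the highest collagen level, with Col1a1 at 97.5 CPM against 6.81 to 28.1 CPM in the other 9 libraries. Without it the median of the list was 0.07 with 20 libraries and 0.20 with 19, and the differences of Col1a1 and Col3a1 turned below 0. All 17 endothelial genes were above 0 as well, with medians of 0.28 and 0.33 and summed levels of 537 to 668 CPM in the 4 libraries and 435.2 CPM in replicate 5, against 348.1 to 584 CPM. Eng, a coreceptor of endothelial cells, passed with 19 libraries (0.53 ± 0.12, 0.0274), at 88.7 to 98.4 CPM in the 4 libraries, 68.1 CPM in replicate 5 and 52.6 to 72.1 CPM in the Rosa26 libraries. It overlaps Fpgs on the opposite strand, which had 224% as many counts. The lymphocyte list (18 genes, of which 16 were above 0 with 20 libraries and 18 with 19) had medians of 0.36 and 0.58, summed levels of 141 to 268 CPM in the 4 libraries and 70.8 CPM in replicate 5 against 72.1 to 381 CPM, and no member that passed in edgeR (1 higher at an unadjusted p, or 7 with 19). Its medians were 0.73 and 0.94 without Rosa26 replicate 3, and the first was 0.18 without HIRA replicate 3.

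Of 13 biliary markers Krt23 was the member that passed, and it is also known from stressed hepatocytes. The medians were 0.22 and 0.41 (0.09 and 0.25 without HIRA replicate 3), with 2 of 13 higher at an unadjusted p under 0.05 (4 with 19 libraries). Their summed level was 127 to 193 CPM in the 4 HIRA libraries, 85.4 CPM in replicate 5 and 90.6 to 160 CPM in the Rosa26 libraries. Krt19, a defining keratin of bile ducts, was at 0.915 to 3.28 CPM against 1.55 to 3.82 CPM and had a difference of -0.09 ± 0.31 (edgeR adjusted p 0.93) or 0.11 with 19 libraries (0.899). Epcam had 0.48 ± 0.32 (0.499) or 0.72 (0.141), and Sox9 had 0.15 ± 0.29 (0.864) or 0.25 (0.722). The part of stellate, endothelial, immune and biliary RNA in the single-gene results was not tested.

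Krt23 and Cdhr2 belong to lists in which other members also had positive differences. Of 10 microvillar adhesion genes, Cdhr2 passed with 20 libraries and Cdhr2 and Vil1, the actin bundler villin, with 19, and the medians were 0.66 and 0.82, or 0.19 and 0.35 without HIRA replicate 3. Vil1 was at 2, 1.41, 0.705, 0.929 and 0.0508 CPM against 0.342, 0.792, 0.344, 0.417 and 0.367 CPM and rose by 1.48 ± 0.37 with 19 libraries (edgeR adjusted p 0.0453), but it overlaps Usp37 on the opposite strand, which had 760.4% as many counts. All 12 WNK pathway genes were above 0, with medians of 0.20 in both fits. Besides Wnk4, the list member Stk39, the kinase that WNK kinases switch on, rose with 19 libraries (0.85 ± 0.19, 0.0252). Cdh1, the epithelial cadherin, was at 43.6, 19.8, 55.6, 23.8 and 8.23 CPM against 9.22, 22, 7.66, 9.82 and 25.2 CPM. The groups overlapped, and Cdh1 rose by 1.28 ± 0.31 with 19 libraries (0.0374).

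Peg10 shares a start region on chromosome 6 with Sgce (ENSMUSG00000004631.15, 4674350 to 4747207), an imprinted sarcoglycan gene transcribed in the opposite direction. Sgce was at 11.6, 9.11, 8.34, 6.65 and 9.61 CPM against 5.89, 7.27, 3.53, 3.66 and 6.47 CPM. The groups overlapped at HIRA replicate 4 and Rosa26 replicate 2, and Sgce rose by 0.76 ± 0.19 (edgeR adjusted p 0.047), with 0.74 and 0.0599 in 19 libraries. These 2 were the members of 26 tested imprinted genes that passed, and the medians of the list were 0.27 and 0.39, or 0.03 and 0.02 without HIRA replicate 3. The fetal liver list had medians of 0.73 and 0.90 over 10 genes, none passed in edgeR (1 higher at an unadjusted p, or 3 with 19), and without HIRA replicate 3 the medians were 0.04 and 0.10. Afp, the fetal counterpart of albumin, was at 2.08 to 7.3 CPM against 2.98 to 5.31 CPM, with a difference of -0.10 ± 0.26 (0.909) or 0.06 with 19 libraries (0.943).

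Stress, growth and clock lists had few or no members past the test. Bbc3, the p53 target PUMA that promotes cell death, was at 14 to 17.2 CPM against 22.9 to 30.9 CPM, without overlap, and fell by 0.69 ± 0.14 (edgeR adjusted p 0.0204; -0.72 and 0.0202 with 19 libraries), the member of 20 p53 targets that passed. In edgeR no gene passed in either fit in the next 5 lists, given by their medians with 20 and 19 libraries and by the genes at an unadjusted p under 0.05. Proliferation (26 genes) had 0.22 and 0.24, with 1 higher gene in each fit, and -0.18 and -0.04 without HIRA replicate 3. Interferon and antigen presentation (28 genes) had 0.09 and 0.26, with 1 lower gene and then 2 higher genes. Its medians were 0.51 and 0.70 without Rosa26 replicate 3, the first was below 0 without Rosa26 replicate 2 (-0.05), HIRA replicate 3 (-0.07) or HIRA replicate 4 (-0.10), and the second was 0.12 to 0.15 without 1 of those 3. The ER and integrated stress response (20 genes) had -0.09 and -0.20, with 1 higher and 1 lower, then 1 higher and 4 lower. Oxidative stress (12 genes) had 0.05 and 0.08, with 1 higher and 2 lower, then 1 higher. The Kupffer cell list (14 genes) turned from -0.13 to 0.07 when replicate 5 was left out, with 3 and then 10 genes above 0. It had 0 genes and then 1 higher gene at an unadjusted p. Without Rosa26 replicate 3 its medians were 0.74 and 0.97. The 15 core clock genes had a median of 0.04 at 6 months and 0.54 at 3 weeks, and none passed at 6 months in edgeR. At an unadjusted p 1 was higher, or 1 higher and 2 lower with 19 libraries.

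How firmly each call held was counted over 21 alternative settings of the 20-library fit and 14 of the 19-library fit. Both sets changed the scaling, the test or the libraries. Upper quartile scaling, limma-voom, the deposited FPKM values and other count filters were tried with 20 libraries only. Counts out of 21 and out of 14 therefore do not rest on the same settings. An adjusted p under 0.05 was kept by Itih5 and Cyp3a11 in 20 of 21, the exception for both being edgeR on the 6-month libraries alone (adjusted p 0.104), and Cdhr2 kept it in 18 of 21 and in 14 of 14. Slc39a5, Krt23 and Slc2a4, in which replicate 5 lay among the controls, kept it in 13, 11 and 7 of 21 and each in 13 of 14. Wnk4 kept it in 18 of 21 and 13 of 14, Tsku in 19 and 10, Peg10 in 18 and 10, Plin4 in 20 and 13, Zdhhc2 in 13 and 10, Slc17a8 in 19 and 11, and Ets2 in 13 and 13. Among the lower genes, Orm3 kept it in 17 and 10, Aqp8 in 20 and 12, Bbc3 in 19 and 12, and Agxt in 15 and 9. Bmper kept it in 15 and 7, Srgap3 in 18 and 7, Serpinb8 in 19 and 9, Grb7 in 11 and 13, and Igf1 in 10 of each. Bmper, for instance, had an adjusted p of 0.115 in edgeR without HIRA replicate 1 in the 19-library fit. H3f3a kept it in 14 of 21 and 13 of 14, and Sgce in 9 and 4. Of the genes that passed with 19 libraries only, the counts were 9 of 14 for Thbs2, Cdh1 and Stk39, 10 for Cyp2c40 and Ccdc30, 8 for Eng, 7 for Vil1, Crp and Bcl6 and 6 for Col5a1.

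At 3 weeks 26 genes were called in the 20-library fit (0.114%), and 43 (0.188%) in the 19-library fit. The harvest times share no libraries. Of those 26 genes, 23 had the same direction at 6 months (21 with 19 libraries), 6 passed by adjusted p at 6 months, and 4 were called. By library the counts did not divide by group. Rosa26 replicate 3 lay on the 3-week side of the mean of the other Rosa26 libraries in 22 of 26 genes, at a median of 0.40 log2 units, HIRA replicate 1 lay on that side of the Rosa26 mean in 15 (0.135), the other HIRA libraries in 21 to 26 and the other Rosa26 libraries in 5 to 14. Those 4 called genes were Cdhr2 (3.62 at 3 weeks and 4.36 at 6 months), Itih5 (1.51 and 1.87), Slc2a4 (2.85 and 1.90) and the unnamed gene model Gm16731 (-1.64 and -1.30). They are named because their number is small, after their values were seen. The median log2 fold change of the 26 genes, signed by their direction at 3 weeks, was 1.5 at 3 weeks and 0.609 at 6 months (0.511 with 19 libraries), but the genes were chosen on 3 weeks, which favours the larger value there. Clock genes were among the 26, and Dbp, an output gene of the clock, had 4.55 at 3 weeks and 0.33 at 6 months (edgeR adjusted p 0.866), or -0.08 with 19 libraries (0.966).

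In the other direction, 45 genes named by the 19-library fit at 6 months were set beside 3 weeks. Of these, 44 had the same sign at both times and 7 had an adjusted p under 0.05 at 3 weeks in the same fit, namely Cdhr2, Slc39a5, Slc2a4, Krt23, Itih5, Wnk4 and Hint3. In 44 of 45 the larger absolute difference was at 6 months, which the choice of genes on 6 months favours. The test of the difference between times passed for 0 genes in edgeR (0.0% of genes, smallest adjusted p 0.614). An unadjusted p under 0.05 was reached by 1514 of the 22867 genes tested. That threshold lets through a share of 0.05 where no gene differs. The test passed for Plin4 alone when HIRA replicate 4 was left out (2.45, adjusted p 0.0328).

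**Figure D5:**
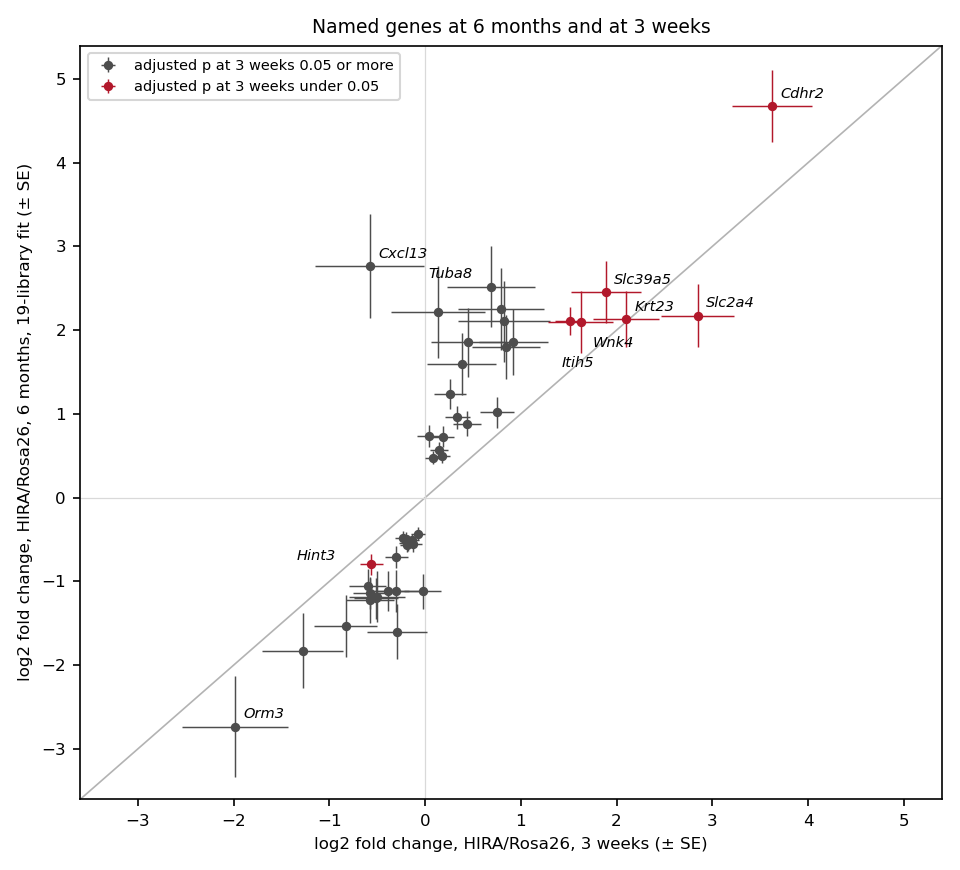
Log2 fold change of HIRA over Rosa26 at 3 weeks (x axis) and at 6 months (y axis) in the 19-library fit for 45 named genes (points, bars are ± SE), with genes of adjusted p under 0.05 at 3 weeks in red. The 7 red genes include Cdhr2, Slc2a4 and Hint3, and Cxcl13 is the gene with opposite signs.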

How the data were processed

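Liver polyA RNA of 20 mice in 4 groups of 5 (HIRA or Rosa26 guide, 3 weeks or 6 months) was sequenced from directional libraries. Per the labels, the submitters' processing notes name STAR, HTSeq and Cufflinks with mm10, and the study's methods name HOMER for counting. Whether counting used strand is not given in the sources used here. The authors deposited read counts per gene, used as the main values, and FPKM values, used as an alternative; 55421 genes were listed, 22854 of them with 0 counts and 9700 with 1 to 9. Depth at 6 months was 19916430 to 24079736 counts. Groups came from the sample titles. Replicate numbers are given in the titles, but nothing there says how the samples were raised or taken, so p-values measure the spread between these samples.

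Genes with 10 or more counts in total were tested with edgeR 4.0.16 in R 4.3.3 (TMM, quasi-likelihood test, group means, Benjamini-Hochberg over 22867 genes), with all 20 libraries and again without the library labelled HIRA 6 months replicate 5. Alternatives were RLE and upper quartile scaling, DESeq2 1.42.0, limma-voom, limma on log2(FPKM + 1) and log2(FPKM + 0.1) (limma 3.58.1) and other count filters. Further ones were the 6-month libraries alone, a replicate block and each library left out. Upper quartile scaling, limma and other count filters were run with 20 libraries only. Named genes were Hira and sex markers, members of the 38 gene lists, up to 15 called genes each way with the largest fold in each fit at a mean of 1 CPM or more (no unnamed gene models), and up to 10 each way with the smallest adjusted p at 10 CPM or more. A gene that the rule names is not reported here. Members and lists were chosen with earlier results of these data known, so no list was tested. The code was tested on simulated data. The deposited tables held no columns outside the 20 libraries.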

Additional observations from a re-analysis of the deposited data

Results flagged for a closer look

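Among 112 groups of 5 libraries examined (the named genes in each arm), 14 held a lowest or highest library far from the other 4 by Dixon's criterion, and chance flags about 1 in 20 groups. Several of these genes were named because a single library carried their fold, so the number of such groups is a description and no test. In the library labelled HIRA 6 months replicate 5 there were 7. It was low for Cdhr2 (0.0508 CPM against 3.19 to 8.96 CPM in the other HIRA libraries), Itih5 (5.69 against 21.6 to 29.2) and Cyp2c40 (4.57 against 51.7 to 99.7). It was high for Cyp2d9 (991 CPM against 10.5 to 20.1), Cyp4a12a (256 against 0.0911 to 0.166), Cyp4a12b (16.6 against 0 to 0.0911) and Eif2s3y (55.6 against 0). HIRA replicate 1 was high for Wnk4 (14.2 CPM against 4.01 to 4.87) and low for Tmem14c (72.6 against 87.5 to 94.3). Among the Rosa26 libraries, replicate 1 was low for Dusp8 (0.171 CPM against 0.51 to 0.606) and had the only Cyp4a12b (0.0427 against 0). Rosa26 replicate 4 was high for Hint3 (23.3 CPM against 19.3 to 20.2), and Rosa26 replicate 5 was high for Igkv1-122 (36.4 against 0 to 0.0927) and Eif2s3y (0.0459 against 0).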

How the results depend on the processing

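With 20 libraries, the 76 called genes became 127 (89 higher and 38 lower) with DESeq2, 14 (7 and 7) on log2(FPKM + 1), 44 (26 and 18) on log2(FPKM + 0.1), and 0 with edgeR on the 6-month libraries alone. Other scalings, filters and tests gave 70 to 86, among them limma-voom with 71 at another split (40 higher and 31 lower against 57 and 19). Leaving out a library gave 18 to 109. In the 19-library fit the 102 genes became 182 (127 higher and 55 lower) with DESeq2 and 3 with edgeR on the 6-month libraries alone, and 45 to 342 when a further library was left out. Of the 76 genes, 60 were also called by DESeq2 and 50 by limma-voom. The test of the difference between times gave 0 to 1 genes when a library was left out (Plin4 without HIRA replicate 4, and Igkv6-25 without Rosa26 replicate 3 in the 19-library fit). When a library was left out, the log2 difference ranged from -0.23 to 1.14 for Col1a1, from -0.33 to 0.95 for Col3a1, from -1.12 to 3.18 for H19 and from -1.36 to 10.91 for Eif2s3y. In the 19-library fit it ranged from -0.00083 to 1.41 for Col1a1, from -0.08 to 1.22 for Col3a1, from -1.01 to 3.48 for H19, from -0.67 to 1.53 for Igf2 and from -0.33 to 0.26 for Afp. The negative values came without HIRA replicate 3, except that of Eif2s3y, which came without HIRA replicate 5. The cause was not tested.

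Same-numbered HIRA and Rosa26 libraries of 6 months had correlated deviations of 0.15, 0.06, 0.30, -0.09 and -0.12. Only HIRA replicate 1 correlated best with its own number. With 5 libraries in each group, some of them far from the rest, these values cannot show whether the numbers pair the samples. With the replicate block 72 genes were called with 20 libraries and 115 with 19, and the test of the difference between times gave 0 genes in both. At this depth, 12 of the 76 and 29 of the 102 called genes had a mean under 1 CPM, where few reads carry the value.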
